A study of Mus musculus with 6 samples.

Results

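Txnip and its relatives Arrdc1, Arrdc2, Arrdc3 and Arrdc4 are the mouse alpha-arrestins examined here. They were chosen by gene identifier, as the rows of the deposited counts that carry these symbols, with the difference between Cox7a2l siRNA and control siRNA in view. All 5 had a row among 52740 gene rows, and all 5 passed the filter on low counts with 15022 genes in all. The RNA came from C2C12 cells, an established mouse myoblast line, maintained in medium with 10% fetal bovine serum and transfected by RNAiMAX lipofection. The siCTRL group (3 libraries) received a random control siRNA, and the siCOX7A2L group (3 libraries) an siRNA against Cox7a2l, which encodes a mitochondrial protein that helps join respiratory complexes III and IV into supercomplexes. Libraries were made from total RNA depleted of ribosomal RNA, with random primers and dUTP strand marking. No label says that replicates were separate cultures, and the spread behind each p-value may therefore be technical rather than biological.

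Alpha-arrestins are adaptor proteins with an arrestin fold and, at the C terminus, PY motifs that recruit ubiquitin ligases of the Nedd4 family to membrane cargo. Txnip also binds and inhibits thioredoxin and promotes removal of the glucose transporters Glut1 and Glut4 from the cell surface, which lowers glucose uptake in muscle cells. Transcription of Txnip, and of its close relative Arrdc4, is known to respond to glucose metabolites through MondoA (the product of Mlxip) and its partner Mlx, which bind paired E-box-like elements called carbohydrate response elements.

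The sequence before the start of Txnip holds such a pair, and it is shown with that of Arrdc4 because these were the members with the highest fitted fold changes. Both are the 250 bases upstream of the RefSeq start site on build GRCm38.p6, another build than the mm39 that the submitters' processing notes name. The Txnip window is chr3:96557707-96557956 on the plus strand, and the Arrdc4 window is chr7:68749239-68749488 on the minus strand. Capitals mark the 5 motifs that were searched: the outer boxes of a paired element spelled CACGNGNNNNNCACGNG, the E-box CACGTG, the forkhead letters GTAAACA, the TATA-box letters TATAA, and CCAAT in either direction (read as ATTGG on the other strand).
Txnip: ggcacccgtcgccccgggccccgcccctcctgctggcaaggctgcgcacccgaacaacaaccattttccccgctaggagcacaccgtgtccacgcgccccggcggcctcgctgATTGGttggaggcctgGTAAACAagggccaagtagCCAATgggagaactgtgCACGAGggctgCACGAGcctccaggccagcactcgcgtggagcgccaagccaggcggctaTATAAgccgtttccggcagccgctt
Arrdc4: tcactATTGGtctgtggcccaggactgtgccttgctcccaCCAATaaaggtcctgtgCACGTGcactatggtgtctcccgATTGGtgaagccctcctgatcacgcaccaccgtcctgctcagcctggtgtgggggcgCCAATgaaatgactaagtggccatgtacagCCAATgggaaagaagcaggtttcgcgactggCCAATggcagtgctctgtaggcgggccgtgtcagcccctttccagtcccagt

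In the Txnip window, CACGAG occurs as a pair with 5 bases between, from 85 to 69 bases before the start. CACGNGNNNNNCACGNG, searched on both strands, was found in 15 of 32851 windows of this length (0.0457%), which belong to 14 genes. This motif can overlap CACGTG. Txnip was the only member with a match, and of the 13 other genes 8 were tested in the siRNA comparison. None of the 8 passed the threshold (edgeR), and their log2 fold changes ran from -0.39 for A430005L14Rik to 0.30 for Irak1bp1, with 4 positive, 4 negative and a median of 0.01. GTAAACA, letters read by FoxO and other forkhead factors, was present in the Txnip window from 121 to 115 bases before the start and in 3.17% of all windows. TATAA lay from 25 to 21 bases before the Txnip start and was present in 22.8% of windows.

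The Arrdc4 window held 6 CCAAT matches, the letters bound by NF-Y, and at least 6 were found in 19 windows (0.0578%). It also held 1 CACGTG, from 193 to 188 bases before the start, a motif present in 6.02% of windows. Txnip had 2 CCAAT matches and Arrdc2 had 3, against at least 2 in 10.1% and at least 3 in 2.79% of all windows. Arrdc3 had 1 in 2 of its 3 listed windows, the same site in windows that overlap, and Arrdc1 had none. A match of letters is a description of the window and does not show that a factor binds there.

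The target of the siRNA was low in every treated library. Cox7a2l had 58.0, 59.5 and 58.9 CPM (the estimated count over the TMM-scaled library total in megareads) in siCTRL replicates 1, 2 and 3, and 6.72, 5.90 and 3.59 CPM in siCOX7A2L replicates 1, 2 and 3 (log2 fold change -3.44, SE 0.19, edgeR adjusted p = 1.9e-05). Total estimated counts ran from 14310241 to 17077826 in siCTRL and from 9890218 to 15095348 in siCOX7A2L, with the lowest in siCOX7A2L replicate 3. Both replicate 3 libraries stood apart: protein-coding messages of mitochondrial DNA took 2.78% and 1.61% of their counts, against 0.589% to 0.616% in the other 4. One gene row without a symbol took 5.81% to 6.59% of the counts in siCTRL and 6.97% to 11.1% in siCOX7A2L. Myoblast markers summed to 6220 to 8396 CPM in siCTRL and 6873 to 7495 CPM in siCOX7A2L, with none of the 8 at 0. Vim was most of this sum, with 4149 to 6727 CPM in siCTRL and 3735 to 5948 CPM in siCOX7A2L. In bulk RNA, fewer cells of a type and less RNA per cell cannot be told apart.

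Txnip was the alpha-arrestin with the most counts and was higher in every siCOX7A2L library than in any siCTRL library. It had 45.2, 40.3 and 19.0 CPM in siCTRL replicates 1, 2 and 3, from 685, 585 and 327 estimated reads. It had 118, 114 and 92.8 CPM in siCOX7A2L replicates 1, 2 and 3, from 1864, 1629 and 826 reads. The lowest treated value thus lay above the highest control value, and siCTRL replicate 3 was below the other control libraries. The mean was 34.8 ± 13.95 CPM (SD, n = 3) in siCTRL and 108 ± 13.7 CPM (SD, n = 3) in siCOX7A2L. The fitted change was 3.29-fold (log2 1.72, SE 0.18), from a model with group and replicate number. By pairs of the same replicate number the log2 difference was 1.38, 1.50 and 2.28, the highest being the pair of replicate 3. These values are a description, since this contrast chose the gene.

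Arrdc4, the closest relative of Txnip and like it linked to glucose uptake, was the least abundant member. It had 6, 11 and 0 reads in siCTRL replicates 1, 2 and 3, or 0.396, 0.757 and 0 CPM, and 3 reads in the library at 0 would be 0.174 CPM. It had 43, 30 and 7 reads in siCOX7A2L replicates 1, 2 and 3, or 2.73, 2.11 and 0.786 CPM. The groups did not overlap, but the lowest treated library and the highest control library, 0.786 and 0.757 CPM, were almost level. The mean was 0.384 ± 0.379 CPM in siCTRL and 1.87 ± 0.991 CPM in siCOX7A2L (SD, n = 3 each), a fitted 5.25-fold change (log2 2.39, SE 0.58) that rests on few reads. Pair differences, drawn towards 0 by a prior count of 2, were 2.42, 1.32 and 2.73 on the log2 scale. The log2 fold change was 3.26 without replicate 2 of both groups, and 1.72 without siCTRL replicate 3 in the model of group alone.

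Arrdc2, known to respond to glucocorticoids and disuse in muscle, had intermediate values. It had 7.59, 6.26 and 3.30 CPM in siCTRL replicates 1, 2 and 3 and 7.99, 10.3 and 6.18 CPM in siCOX7A2L replicates 1, 2 and 3. Each treated library was above the control library of its number in CPM, but pair 1 by little (log2 0.07, against 0.70 and 0.88), and the groups overlapped. Pair 3 went the other way on the length-scaled TPM given below. The fitted log2 fold change was 0.54 (SE 0.23), with means of 5.72 ± 2.19 and 8.14 ± 2.04 CPM (SD, n = 3 each).

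Arrdc1 and Arrdc3 had lower CPM after Cox7a2l siRNA, but Arrdc3 had the same mean in both groups on the length-scaled TPM given below. Arrdc1, an adaptor that recruits Tsg101 to the plasma membrane and drives budding of small vesicles, had 14.2, 13.6 and 8.69 CPM in siCTRL replicates 1, 2 and 3 and 8.56, 12.6 and 6.40 CPM in siCOX7A2L. Its pairs differed by -0.72, -0.12 and -0.43 on the log2 scale, and the fitted log2 fold change was -0.43 (SE 0.19). Arrdc3, an adaptor in the trafficking of beta-adrenergic receptors, had 17.2, 15.00 and 11.998 CPM in siCTRL and 11.7, 14.1 and 8.53 CPM in siCOX7A2L. Its pairs differed by -0.54, -0.09 and -0.48, and the fitted log2 fold change was -0.37 (SE 0.18). The groups overlapped for both genes, and pair 2 was nearly level in both.

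Of the 5 members, 1 (Txnip) was past the adjusted threshold of 0.05 in the fit with the replicate number, in which 0.726% of all genes were called, 0.433% of them higher and 0.293% lower. The groups did not overlap for 2 members, Txnip and Arrdc4, and for 15.6% of all genes. In CPM, Txnip, Arrdc2 and Arrdc4 were higher in all 3 pairs, as were 21.2% of genes, and Arrdc1 and Arrdc3 were lower in all 3, as were 20.8%. Because the members were picked from this contrast, nothing is read from these counts. Without the replicate number, Txnip was not past the threshold, and its log2 fold change was 1.64 (SE 0.32). The authors' deposited table gives log2 fold changes of 1.71 for Txnip, -0.42 for Arrdc1, 0.54 for Arrdc2, -0.38 for Arrdc3 and 2.58 for Arrdc4.

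**Figure D1:**
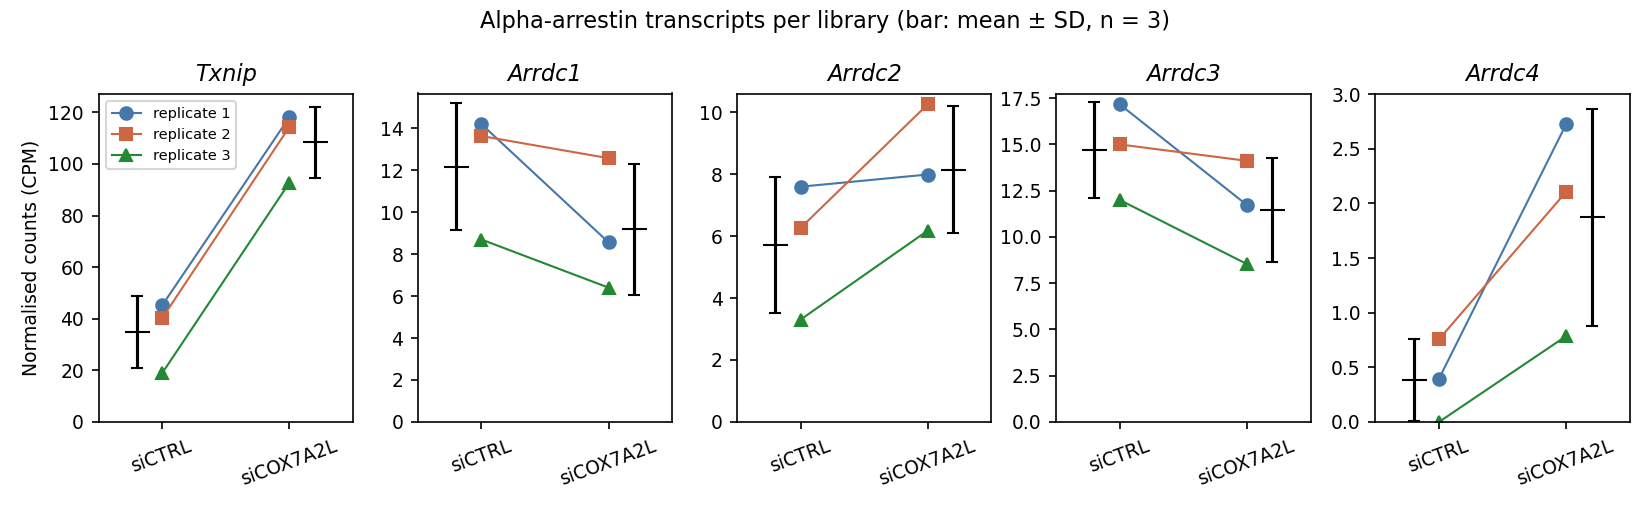
CPM of the 5 alpha-arrestins in the 6 libraries, each gene on its own axis from 0. Colours and shapes mark replicate numbers, lines join libraries of the same number, and black bars give the mean and SD (n = 3); Txnip in siCOX7A2L lies at 92.8 CPM and above, and in siCTRL at 45.2 CPM and below.

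**Figure D2:**
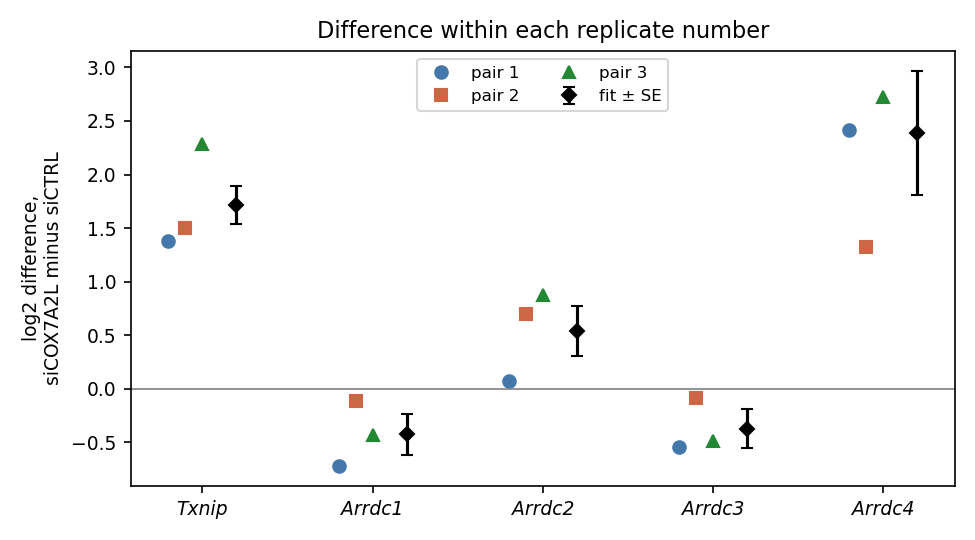
Log2 difference in CPM between siCOX7A2L and siCTRL for each pair of the same replicate number, with the fitted log2 fold change and its SE. Pairs of Txnip, Arrdc2 and Arrdc4 lie above 0 and pairs of Arrdc1 and Arrdc3 below 0, with values near 0 for pair 1 of Arrdc2 (0.07) and pair 2 of Arrdc3 (-0.09).

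Levels of different genes were compared per transcript length, on the deposited TPM (transcript abundance per length, scaled to 1 sum per library) rescaled after removal of the unnamed row, which took 36.9% to 53.6% of TPM. In siCTRL the order was Txnip at 23.4 ± 4.80 TPM, Arrdc1 at 16.0 ± 3.55, Arrdc3 at 12.5 ± 2.52, Arrdc2 at 6.85 ± 0.810 and Arrdc4 at 0.325 ± 0.358 (SD, n = 3 each). Values of Txnip and Arrdc1 overlapped across control libraries, as did those of Arrdc1 and Arrdc3, whereas Arrdc3 and Arrdc2 did not overlap, nor did Arrdc2 and Arrdc4. Within each control library Txnip was above Arrdc1, and Arrdc1 above Arrdc3. In siCOX7A2L, Txnip stood at 70.6 ± 13.6 TPM, above Arrdc3 at 12.5 ± 4.21, Arrdc1 at 10.6 ± 3.48, Arrdc2 at 7.996 ± 2.59 and Arrdc4 at 1.63 ± 1.21 (SD, n = 3 each). There Arrdc3, Arrdc1 and Arrdc2 overlapped with one another across libraries, but within each library Arrdc2 was below both others.

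Shares of the summed message of the 5 genes are given as a description, since this contrast chose Txnip, which is part of the sum. Txnip held 39.8%, 40.5% and 38.2% of the summed TPM of the 5 genes in siCTRL replicates 1, 2 and 3, and 70.9%, 63.1% and 72.4% in siCOX7A2L. The sum itself was 68.3, 61.8 and 47.1 TPM in siCTRL and 116, 117 and 76.8 TPM in siCOX7A2L, without overlap. The share of Arrdc1 was 27.0 ± 2.37% in siCTRL and 10.3 ± 2.04% in siCOX7A2L, and that of Arrdc3 was 21.2 ± 2.92% and 11.9 ± 1.81% (SD, n = 3 each). A share falls when another member rises: the rescaled TPM of Arrdc3 had the same mean in both groups to 3 digits, and its share was lower through the higher sum, which holds Txnip. Arrdc1 lay above Arrdc3 in each control library and below it in each treated library, in siCOX7A2L replicate 3 by little (7.78 and 7.95 TPM).

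**Figure D3:**
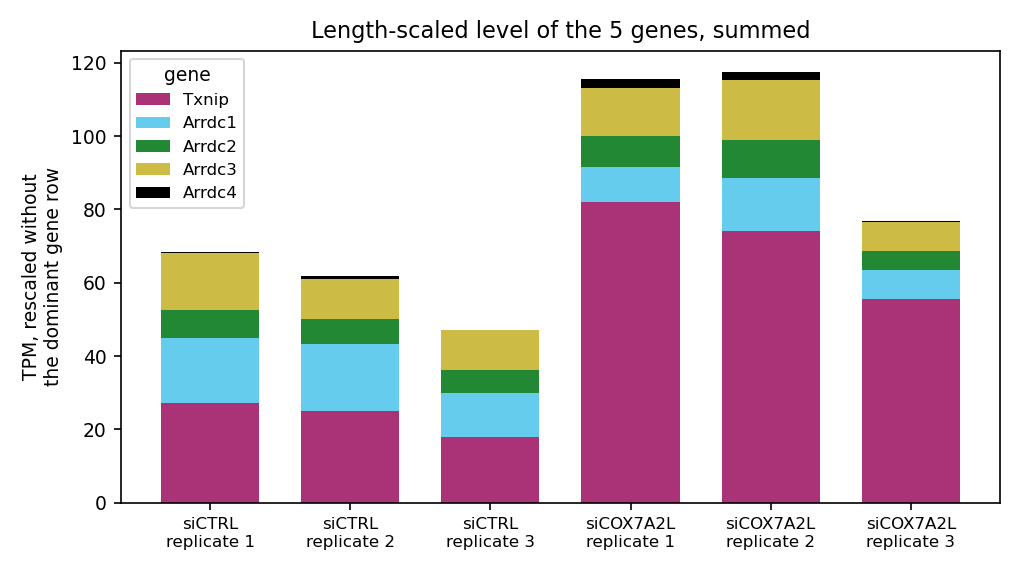
Stacked bars of rescaled TPM of the 5 alpha-arrestins in each of the 6 libraries, with colours for the genes. Txnip, the lowest block, takes 38.2% to 40.5% of the sum in siCTRL and 63.1% to 72.4% in siCOX7A2L.

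Counts and TPM did not give the same picture in every library. Txnip had 27.2, 25.01 and 18.0 rescaled TPM in siCTRL replicates 1, 2 and 3 and 82.0, 74.1 and 55.6 in siCOX7A2L, so siCTRL replicate 3 was closer to the other controls than in CPM. The ratio of counts to TPM, which reflects the mean length of the transcripts assigned to a gene, was 116%, 110% and 70.1% of the gene's mean for Txnip in siCTRL replicates 1, 2 and 3 and 103%, 106% and 94.6% in siCOX7A2L. For Arrdc2 it was 111%, 105% and 57.5% in siCTRL and 108% to 110.1% in siCOX7A2L. For Arrdc3 it was 110%, 131% and 102% in siCTRL and 89.2%, 83.1% and 85.4% in siCOX7A2L, without overlap. The highest ratio over the lowest was 1.66 for Txnip, 1.92 for Arrdc2 and 1.57 for Arrdc3, against a median of 1.21 over 10410 genes. All of these lay in the upper part of the distribution (88.5th, 94.3rd and 84.7th percentile). On log2 TPM the difference between the groups was 1.36 for Txnip, -0.76 for Arrdc1, -0.016 for Arrdc2, -0.22 for Arrdc3 and 0.90 for Arrdc4, where the median of all genes was -0.21, so Arrdc3 was level with that median and Arrdc2 above it. The value of Arrdc4 was drawn towards 0 by the 0.5 added before the log, above its deposited TPM in every siCTRL library (0.153, 0.415 and 0). Its mean deposited TPM was 0.190 in siCTRL and 0.887 in siCOX7A2L. Arrdc4 had 0.267, 0.709 and 0 rescaled TPM in siCTRL and 2.48, 2.17 and 0.244 in siCOX7A2L, so its groups overlapped on that scale.

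Apart from the siRNA, all 5 alpha-arrestins had lower CPM in replicate 3 than in replicates 1 and 2, and 4 of them passed the edgeR threshold. This contrast, replicate 3 against the mean of replicates 1 and 2 in both groups, compares 2 libraries with 4 and did not enter the choice of members. It takes no account of transcript length. The ratio of counts to TPM was lowest in siCTRL replicate 3 for Txnip and Arrdc2 (70.1% and 57.5% of the gene's mean). Txnip was 0.609 times its level in the other replicates (log2 -0.71, SE 0.19, edgeR adjusted p = 0.0182). Arrdc1 fell to 0.619 times (log2 -0.69, SE 0.21, edgeR adjusted p = 0.0321) and Arrdc2 to 0.571 times (log2 -0.81, SE 0.26, edgeR adjusted p = 0.0362). Arrdc4 fell to 0.214 times (log2 -2.22, SE 0.71, edgeR adjusted p = 0.0379). Arrdc3 did not pass, with 0.706 times (log2 -0.50, SE 0.19, edgeR adjusted p = 0.0734). Thus 4 of 5 members were lower past the threshold, as were 13.3% of all genes, and 29.6% of genes differed in either direction.

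With DESeq2 only Txnip kept its call in this contrast, and Arrdc1, Arrdc2 and Arrdc4 had DESeq2 adjusted p of 0.0782, 0.0934 and 0.0617. Myotube markers, which rise when myoblasts differentiate, moved with the replicate number: they summed to 156 and 441 CPM in the replicate 3 libraries of siCTRL and siCOX7A2L, and to 11.1 to 33.1 CPM in the other 4. Tnnt1, Actc1 and Acta1, muscle contractile genes and 3 of 9 tested markers, also passed between the siRNA groups (log2 2.03, 1.55 and 1.14), with values that overlapped. Fibroblast markers summed to 19.1 to 24.8 CPM in siCTRL and 27.1 to 58.5 CPM in siCOX7A2L, and Dcn was the 1 of 4 tested that passed (log2 1.72). Dcn had 1.85, 2.48 and 11.7 CPM in siCTRL and 9.89, 3.65 and 45.1 CPM in siCOX7A2L, so it was most of the highest sum. Pdgfra, Pi16 and Col15a1, the others tested, overlapped between the groups. None of Tnnt1, Actc1, Acta1 and Dcn passed without the replicate number. Without replicate 3 of both groups, Tnnt1 still passed (log2 1.90, edgeR adjusted p = 0.0435). Actc1, Acta1 and Dcn did not pass there (log2 1.11, 0.95 and 1.54). The values of all 4 moved when a single replicate 3 library was left out, which leaves the other replicate 3 library without its counterpart. In the model of group alone, Tnnt1, Actc1, Acta1 and Dcn had log2 fold changes of -0.15, -1.86, -1.60 and 0.33 without siCOX7A2L replicate 3, and of 4.19, 4.78, 3.75 and 3.16 without siCTRL replicate 3. Adipocyte markers summed to 25.9 to 43.7 CPM over all libraries, with Cidec and Lep at 0, endothelial markers to 0.492 to 1.14 CPM with Emcn at 0, and macrophage and leukocyte markers to 1.79 to 3.30 CPM with Adgre1 at 0. The part of these marker lists, of the unnamed row and of the mitochondrial messages in the alpha-arrestin values was not tested.

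Genes that work with alpha-arrestins were then counted in the siRNA comparison, from lists drawn up with earlier results of these data known. Of 130 distinct genes tested in 10 lists, 4 genes passed, against 0.726% of all genes, and the median log2 fold change of all genes was 0.01. None of the 4 passed in the model of group alone. With a term for replicate 3 in place of the replicate number, Mxd4, Fbxo32 and Akt1 passed (edgeR adjusted p = 0.0239, 0.0342 and 0.0347) and Mycl did not (0.0783). Counts at an unadjusted edgeR p under 0.05, given below for each list, are to be read against 17.7% of all genes.

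The other arrestin-fold genes gave no calls among 6 tested, and their log2 fold changes ran from -0.11 to 0.13 with a median of -0.07. The beta-arrestins, which couple receptors to endocytosis, had log2 fold changes of 0.07 (SE 0.13) for Arrb1 and -0.07 (SE 0.14) for Arrb2. Arrdc5 and the cone arrestin gene Arr3 had 0 reads in every library, where 3 reads would be 0.174 to 0.337 CPM. At an unadjusted p under 0.05, 0 of the 6 passed in edgeR, and 0 were called by DESeq2.

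Among the thioredoxin and peroxiredoxin genes, which hold the redox partners of Txnip, 0 of 25 passed in edgeR or DESeq2, and 1 had an unadjusted edgeR p under 0.05, a smaller share than the 17.7% of all genes. Txn1, the thioredoxin that Txnip binds, had 263, 258 and 268 CPM in siCTRL and 238, 220 and 213 CPM in siCOX7A2L, without overlap (log2 -0.23, SE 0.12, edgeR adjusted p = 0.325). Txnrd1, which reduces it, did not pass between the siRNA groups (log2 -0.01, SE 0.11, edgeR adjusted p = 0.968). In replicate 3, 8 of the 25 genes were lower past the threshold, as were 13.3% of all genes, among them Txnrd1 (log2 -0.46, SE 0.12, edgeR adjusted p = 0.0182).

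Of the Nedd4-family ligases and adaptors, which the PY motifs recruit, 0 of 10 passed in edgeR or DESeq2, with 1 at an unadjusted edgeR p under 0.05 and a median log2 fold change of -0.17. Itch, the ligase that ubiquitinates Txnip, had a log2 fold change of -0.30 (SE 0.17, edgeR adjusted p = 0.392). Nedd4 was at 0.28 (SE 0.12, edgeR adjusted p = 0.246) and Wwp1 at -0.30 (SE 0.14, edgeR adjusted p = 0.292), and for both the groups did not overlap.

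The list with the most calls held the Mondo, Mlx and Myc-Max network factors, the family of proteins that act on E-box elements, with 2 of 11 tested higher in edgeR and the same 2 called by DESeq2. At an unadjusted edgeR p under 0.05 there were 7 of the 11, in both directions. The log2 fold changes of the list ran from -0.53 to 1.04, with 7 positive and 4 negative. Mxd4, a Max partner that opposes Myc, had 79.5, 73.6 and 68.2 CPM in siCTRL and 120, 128 and 149 CPM in siCOX7A2L, so the groups did not overlap (1.79-fold, log2 0.84, SE 0.13, edgeR adjusted p = 0.0263). Mycl, a Myc paralogue, had 8.52, 6.74 and 21.8 CPM in siCTRL and 21.2, 9.55 and 50.4 CPM in siCOX7A2L, with overlap and the highest values in replicate 3 (log2 1.04, SE 0.19, edgeR adjusted p = 0.0400). In the model of group alone its log2 fold change was 0.31 without siCOX7A2L replicate 3 and 1.81 without siCTRL replicate 3. Mlxip, which encodes MondoA, had 44.4, 45.4 and 46.1 CPM in siCTRL and 52.6, 52.5 and 64.1 CPM in siCOX7A2L (log2 0.31, SE 0.13, edgeR adjusted p = 0.257). Its partner Mlx did not pass either (log2 -0.45, SE 0.15, edgeR adjusted p = 0.157), and Mlxipl, which encodes the related ChREBP, had at most 1 read in a library.

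Of 16 carbohydrate-response genes, known targets of Mondo factors in other tissues, 0 passed in edgeR or DESeq2, 1 had an unadjusted edgeR p under 0.05, and the median log2 fold change was -0.04. Glucose transporters and hexokinases gave 0 calls among 9 in edgeR or DESeq2, with 1 at an unadjusted edgeR p under 0.05. Slc2a1, which encodes the Txnip cargo Glut1, had 223, 220 and 148 CPM in siCTRL and 293, 170 and 258 CPM in siCOX7A2L, with overlap (log2 0.27, SE 0.20, edgeR adjusted p = 0.526). It passed when replicate 2 of both groups was left out (log2 0.59, edgeR adjusted p = 0.0192) and was at 0.0086 when replicate 3 of both groups was left out (edgeR adjusted p = 0.990). Slc2a4, which encodes Glut4, had 0.492 to 1.91 CPM and did not pass the filter on low counts.

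Cargoes and vesicle partners, among them the beta-adrenergic receptors and Tsg101, gave 0 calls among 16 in edgeR or DESeq2, with 4 at an unadjusted edgeR p under 0.05, against 17.7% of all genes. Txnip-binding and inflammasome genes gave 0 calls among 9, with 1 at an unadjusted edgeR p under 0.05 and 0 by DESeq2, and Nlrp3 had at most 4 reads in a library. Of 17 glucocorticoid, FoxO and fasting-response genes 1 passed in edgeR and 7 had an unadjusted edgeR p under 0.05. DESeq2 called 2, Fbxo32 and the phosphatase gene Dusp1, which is named after its values were seen (edgeR log2 -0.65, SE 0.14, edgeR adjusted p = 0.0584). Fbxo32, the ubiquitin ligase subunit atrogin-1, had 23.6, 20.9 and 29.2 CPM in siCTRL and 37.6, 35.9 and 80.0 CPM in siCOX7A2L, without overlap (1.96-fold, log2 0.97, SE 0.17, edgeR adjusted p = 0.0378).

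AMPK and Akt are kinases that phosphorylate Txnip, and their list also held Stk11 and the regulatory subunits of AMPK. This list gave 1 call among 11 in edgeR, the same gene in DESeq2, and 5 at an unadjusted edgeR p under 0.05. Akt1 had 364, 378 and 398 CPM in siCTRL and 261, 249 and 240 CPM in siCOX7A2L, without overlap, and was 0.658 times its control level (log2 -0.60, SE 0.12, edgeR adjusted p = 0.0488). Without replicate 3 of both groups Mxd4 still passed, and Akt1, Fbxo32 and Mycl did not (edgeR adjusted p = 0.0748, 0.0669 and 0.113).

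**Figure D4:**
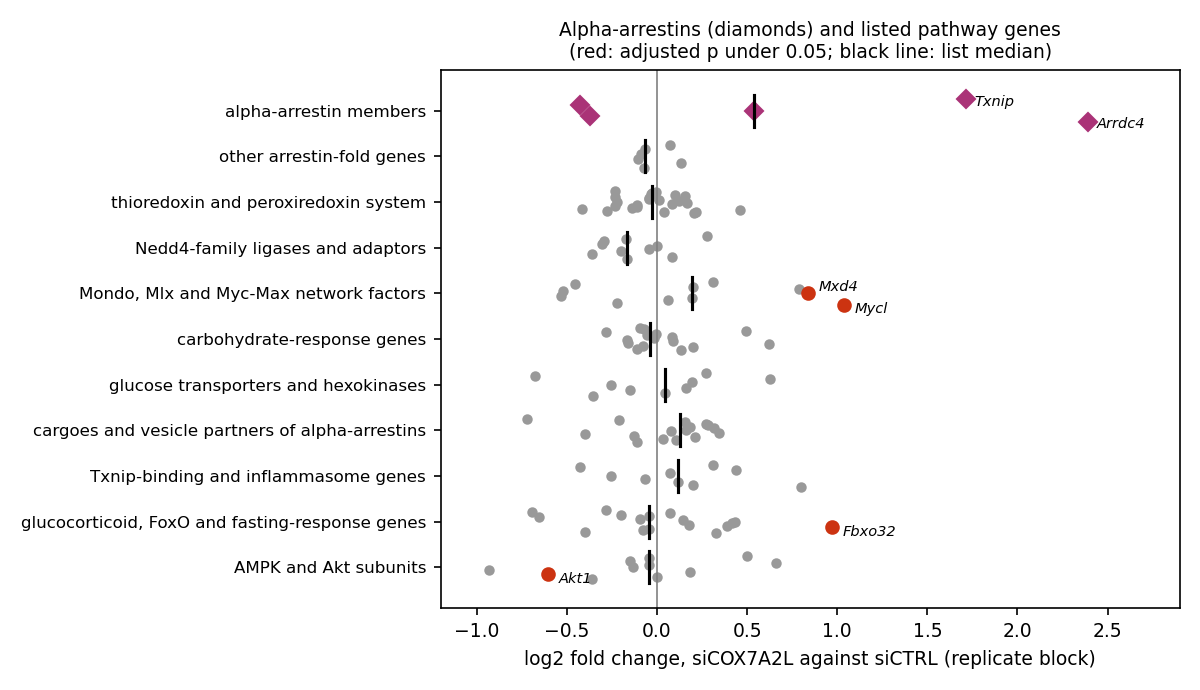
Log2 fold change (siCOX7A2L against siCTRL) of each tested gene in the 10 pathway lists, 1 point a gene, with the members as diamonds in the top line and list medians as black lines. Red points mark the 4 listed genes past an edgeR adjusted p of 0.05 (Mxd4, Mycl, Fbxo32 and Akt1), and the medians of the pathway lists lie between -0.17 and 0.20.

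The genes whose pattern was most like that of Txnip over the 6 libraries were ranked by Pearson r of log2 CPM among 10254 genes with a mean of at least 5 CPM. The points share group and replicate number, so r is a description and includes the choice of Txnip for its group difference. Among the 8 highest were Arf1 (r = 0.997), Slc40a1, Fyttd1 and Txlna (0.992 each) and Zfp512b (0.991). Arf1 encodes a small GTPase of Golgi traffic and Slc40a1 the iron exporter ferroportin. The log2 fold changes of these 5 between the siRNA groups ran from 0.40 for Txlna to 0.77 for Slc40a1, smaller than that of Txnip, and none passed the threshold. The 4 lowest were Ccne1 (r = -0.995), Foxm1 (r = -0.994), Dock8 (r = -0.992) and Lbr (r = -0.991). Ccne1 encodes cyclin E1, and Foxm1 a factor of cell cycle gene expression. Of these 4, Foxm1 and Dock8 passed the threshold between the siRNA groups (log2 -0.66 and -1.24). A ranking by r with Txnip favours genes that differ between the groups, so these calls are a description.

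Among the relatives, r with Txnip over the 6 libraries was 0.933 for Arrdc4, 0.835 for Arrdc2, -0.183 for Arrdc1 and -0.277 for Arrdc3. The ranking depends on the scale: on log2 TPM 0 of the 8 genes were among the 8 highest, and r with Txnip was 0.935 for Fyttd1, 0.745 for Arf1 and 0.735 for Slc40a1.

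**Figure D5:**
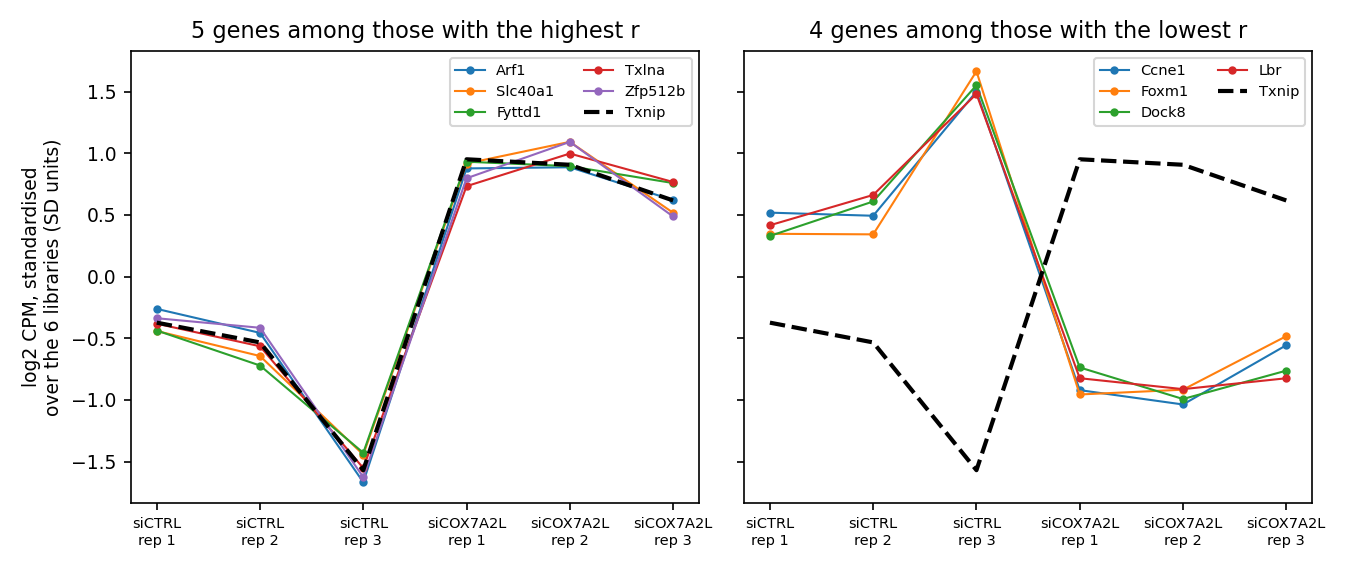
Log2 CPM of Txnip, of 5 of the 8 genes with the highest Pearson r and of the 4 with the lowest, over the 6 libraries, standardised for each gene (mean 0, in SD units), so sizes of change are not comparable between genes. Lines only join the points of a gene, and libraries have no order; Txnip (dashed) and the 5 genes like it are lowest in siCTRL replicate 3, where the 4 genes with the lowest r are highest.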

How the data were processed

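The 6 libraries were grouped by the treatment in their labels. Tools named in the submitters' processing notes, with no role given, were Salmon 0.13.1, Trim Galore 0.6.4 and DESeq2 1.30.1, and the build was mm39. The authors deposited estimated counts per gene (12.5% to 14.3% of values not whole), not scaled to depth, and TPM, scaled to transcript length and to 1 sum per library. The authors' deposited result table holds, per the file headers, scaled counts (a normalised signal), log2 fold changes, a test statistic (a score), and p-values. Its log2 fold changes match a DESeq2 refit with a term for replicate 3 to within 1.3e-09 over 26739 genes.

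The design foresaw whole counts, so these were rounded. The main test was edgeR 4.0.16 (R 4.3.3) with TMM, the default filter by group, robust quasi-likelihood and Benjamini-Hochberg adjustment at 0.05. The model held group and replicate number. The script was tested on simulated data. SE is the fold change over the root of F. Log2 CPM used a prior count of 2, and log2 TPM a pseudocount of 0.5 with limma 3.58.1. Alternatives included DESeq2 1.42.0, other scalings, no filter, no replicate number and leaving out libraries. Symbols were joined by identifier (97.6% of rows). Depth limits Arrdc4 most.

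Replicate numbers were treated as pairs because the rule that defined this set of genes named the replicate number as a block. Deviations from the group means correlated at 0.53, 0.45 and 0.67 within numbers 1, 2 and 3. Numbers 1 and 2 also correlated across (0.43 and 0.44), so the pairing is clear only for replicate 3. Control replicates 1 and 2 differed by more than counting noise (median chi-square 0.816 against 0.455) and were kept as 2 samples.

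The members and lists were chosen with earlier results of these data known. Named genes were Cox7a2l, the members, up to 3 called genes per direction in each list, 11 direct partners, and the 8 highest and 4 lowest r with Txnip, of which some are not reported here. Promoter sequences are from RefSeq (GRCm38.p6), where all 5 members matched 7 windows, and motifs were searched on both strands.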

Additional observations from a re-analysis of the deposited data

How the results depend on the processing

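The log2 fold change of Txnip was positive in all 16 alternatives (1.34 to 1.89), and Txnip passed the threshold in 8 of them. All refit libraries whose contrast chose Txnip, so these values are a description. In the 15 on counts, Arrdc1 and Arrdc3 were negative and Arrdc2 and Arrdc4 positive. On log2 TPM, whose median over all genes was -0.21, Arrdc3 was level with that median (-0.22), Arrdc2 lay above it (-0.016), Arrdc1 was -0.76 and Arrdc4 0.90. The pseudocount of 0.5 drew that Arrdc4 value towards 0. With a replicate number left out of both groups, Arrdc4 ran from 2.06 (replicate 3) to 3.26 (replicate 2). With a single library left out and no replicate block, it ran from 1.72 (siCTRL replicate 3) to 3.25 (siCTRL replicate 2). Of all genes, 109 passed with the replicate block and 2 with no replicate block (954 at an unadjusted p under 0.05), with 0 in place of 4 genes of the pathway lists. The count was 197 with a term for replicate 3, 58 with library size alone, 1257 with no filter, 495 with DESeq2 and 3 with limma on log2 TPM. It was 373, 1210 and 51 without replicates 1, 2 and 3 of both groups, and 0 to 2 without single libraries and no replicate block. The pathway lists gave 1 call without replicate 3 and 11 without replicate 2. In the replicate 3 contrast, DESeq2 gave -0.71 for Arrdc1, -0.82 for Arrdc2 and -2.59 for Arrdc4, all short of the threshold, and Arrdc3 passed with no filter (-0.55, edgeR adjusted p = 0.0454). Patterns most like Txnip shared 0 of 8 genes with those on log2 TPM. Without siCOX7A2L replicate 3 and no replicate block, Tnnt1, Actc1 and Acta1 turned to -0.15, -1.86 and -1.60, Dcn fell to 0.33 and Mycl to 0.31. With the block and without replicate 3 of both groups, Tnnt1, Actc1 and Acta1 were at 1.90, 1.11 and 0.95, Dcn at 1.54 and Mycl at 0.94. Where no value shows it, the cause was not tested. Arrdc4, with 0 to 43 reads a library, is the member that depth limits most.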
